A study of Mus musculus with 10 samples.

Results

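The genes of the mouse MSX family were described across cultures of adipocyte precursors (APs) kept with or without interleukin-4 (IL-4). The rows for Msx1, Msx2 and Msx3, 3 of the 18384 genes listed, were taken by gene symbol, and a gene missing from a library's list was set to 0. The family was chosen by its measured difference between IL-4 and control libraries, so that difference is described below without a test for any of the 3 genes. APs had been obtained from the subcutaneous white adipose tissue (scWAT) of C57BL/6 J mice by magnetic sorting, in which CD45- and CD31-bearing cells were removed and SCA-1-bearing cells were kept. Cells were grown in DMEM F12 medium with fetal bovine serum, without IL-4 in the 3 control libraries and with IL-4 for 4 days in the 3 IL-4 libraries, and poly-A RNA was sequenced. The cells were primary cultures and not a clonal line, and the sources used here do not tie the libraries to single animals.

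MSX proteins are homeodomain transcription factors that mostly act as repressors, by binding TAAT-containing DNA and by joining other proteins such as TLE corepressors and DLX factors. Msx1 and Msx2 are expressed in embryonic mesenchyme and neural crest derivatives, including limb buds, teeth and skull bones, where bone morphogenetic proteins (BMPs) induce them, and Msx2 is known to favour bone over fat formation in mesenchymal cells. Msx3 is known from the dorsal neural tube and has also been described in microglia.

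All 3 genes lie on the minus strand of GRCm38 (mm10) and have 2 exons each. Msx1 (Entrez gene 17701) occupies chr5:37820491-37824585, Msx2 (17702) chr13:53466881-53472780 and Msx3 (17703) chr7:140046157-140049088. The deposited files used 1 RefSeq transcript per gene, of 1931 bases for Msx1, 2162 for Msx2 and 2287 for Msx3. RefSeq also lists a second Msx3 transcript, which has the same second exon and a first exon of 371 bases in place of 303. Below are the 250 bases before each transcription start from RefSeq (GRCm38.p6), shown so that Msx3, abundant with IL-4, can be set beside Msx1 and Msx2, which were not. They are written 5′ to 3′ on the gene's strand, with the letters CCAAT, or ATTGG where the match is on the other strand, in capitals, at chr5:37824586-37824835 for Msx1, chr13:53472781-53473030 for Msx2 and chr7:140049089-140049338 for Msx3.
Msx1: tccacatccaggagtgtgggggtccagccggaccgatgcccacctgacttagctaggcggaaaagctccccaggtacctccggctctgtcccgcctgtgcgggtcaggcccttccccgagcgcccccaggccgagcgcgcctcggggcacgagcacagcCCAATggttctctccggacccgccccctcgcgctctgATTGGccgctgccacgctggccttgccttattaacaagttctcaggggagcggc
Msx2: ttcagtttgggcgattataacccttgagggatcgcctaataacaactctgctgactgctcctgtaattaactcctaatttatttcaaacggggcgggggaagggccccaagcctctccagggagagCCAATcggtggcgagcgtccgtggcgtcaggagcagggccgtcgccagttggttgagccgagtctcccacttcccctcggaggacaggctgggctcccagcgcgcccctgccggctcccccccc
Msx3: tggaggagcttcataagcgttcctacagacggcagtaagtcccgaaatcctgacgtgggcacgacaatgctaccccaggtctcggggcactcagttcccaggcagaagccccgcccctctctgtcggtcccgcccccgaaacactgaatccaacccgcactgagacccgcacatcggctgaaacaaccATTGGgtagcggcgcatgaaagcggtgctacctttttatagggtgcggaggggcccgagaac

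GC content was 68.0% in the Msx1 promoter, 61.6% in that of Msx2 and 60% in that of Msx3, all above the median of 52.4% over 32851 RefSeq promoters of 250 bases. CCAAT was found on either strand in all 3 promoters, as in 33.85% of all promoters. The Msx1 window held 2 matches, the Msx2 window 1 and the Msx3 window 1, and the Msx3 match began 62 bases before the start. TATAAA, found on the opposite strand from 28 to 23 bases before the Msx3 start and in neither of the other promoters, was present in 12.37% of promoters. CCAAT and TATAAA were searched for after the sequences had been seen. The palindromes that STAT proteins recognise, TTC and GAA with 4 or with 3 bases between them, were each found in none of the 3 windows and in 5.85% and 7.02% of all promoters. TAATTG, a sequence bound by MSX homeodomains, was likewise found in none of the 3 windows and in 7.17% of promoters. These are matches of letters within 250 bases and do not report binding.

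Library totals lay between 28526779 and 28674597 expected counts in the controls and between 28914008 and 29057784 with IL-4. Between 9.14% and 9.59% of the counts of a control library, and 13.8% to 15.5% of an IL-4 library, belonged to its 10 most abundant genes. Genes were called when the adjusted p of edgeR's quasi-likelihood test was under 0.05 and the log2 fold change was beyond 1 in either direction. Of 14009 genes tested, 809 were called higher with IL-4 (5.77%) and 737 lower (5.26%).

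Msx3 was nearly unread in control cultures and abundant with IL-4. Its expected counts, the number of reads assigned to the gene, were 0, 0 and 2 in control replicates 1, 2 and 3. In IL-4 replicates 4, 5 and 6 they were 1499, 1582 and 1838. The FPKM, reads scaled by transcript length and library size, were 0, 0 and 0.03 in control and 23.36, 24.59 and 28.44 with IL-4. Every IL-4 library was thus far above every control library, and the IL-4 libraries differed little from each other, with a mean of 25.46 ± 2.65 FPKM (SD, n = 3). Since each control library was at or under 3 counts, only a limit can be given, and with 3 counts allowed in each control library the IL-4 level of Msx3 was at least 607-fold higher. The limit was 539.5-fold with library totals as the only scaling, and between 578.0- and 629.6-fold when 1 IL-4 library was left out. The fitted log2 fold change of 11.16 depends on the count added to zeros. It became 13.74 without control replicate 3, the only control with Msx3 reads.

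Msx2 had few reads in any library and fewer with IL-4. Control replicates 1 to 3 held 13, 11 and 15 expected counts, and IL-4 replicates 4 to 6 held 0, 5 and 6. All 3 controls were above all 3 IL-4 libraries, and the library without a read, IL-4 replicate 4, allows up to 3 counts. In FPKM, Msx2 was at 0.217 ± 0.0351 in control and 0.06 ± 0.0529 with IL-4 (SD, n = 3 each). The mean normalized count, scaled to library size, was 12.3 ± 1.76 in control and 3.84 ± 3.36 with IL-4, or 3.21-fold lower with IL-4. The fitted log2 fold change was -1.64 (SE 0.60), and with 1 library left out it ranged from -2.15 without IL-4 replicate 6 to -1.07 without IL-4 replicate 4. On the log2(FPKM + 0.1) and log2(FPKM + 1) scales, which understate changes of genes this low, it was -1.04 and -0.20. With counts this low, counting error limits the precision of each library. In RNA from whole cultures, fewer cells that express a gene and less RNA per cell cannot be told apart.

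Msx1 was read at a similar level in both groups. The control libraries held 51, 45.85 and 45.67 expected counts, and the IL-4 libraries 67, 41.24 and 49.22. The lowest and the highest of the 6 values both came from IL-4 libraries, so the groups overlapped. Mean levels were 0.89 ± 0.0608 FPKM in control and 0.97 ± 0.246 FPKM with IL-4 (SD, n = 3 each). The fitted log2 fold change of 0.29 (SE 0.21) was 0.07 without IL-4 replicate 4 and 0.44 without IL-4 replicate 5. Fractions in these counts came from reads shared with Msx1os, an antisense transcript at chr5:37820564-37822751 that overlaps the second exon of Msx1. The sum of both genes was a whole number in each library, 51, 48 and 48 in control and 67, 43 and 57 with IL-4. Msx1os was given between 0% and 13.65% of that sum, the most in IL-4 replicate 6. The use of strand in counting is not given in the sources used here, and reads of the 2 genes cannot be told apart without it.

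**Figure D1:**
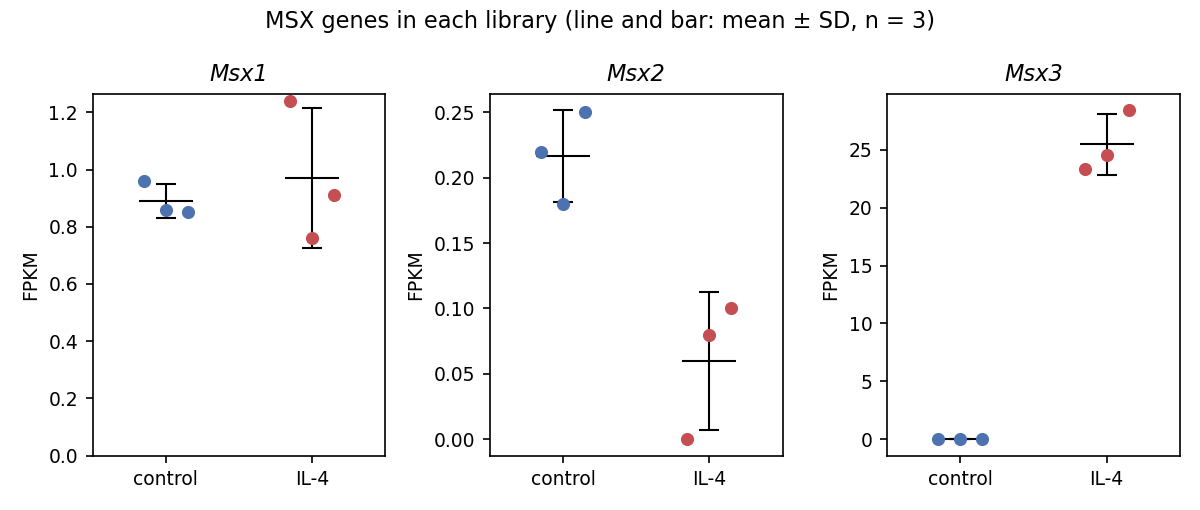
FPKM (vertical axes, each with its own scale) of Msx1, Msx2 and Msx3 in 3 control (blue) and 3 IL-4 (red) libraries. Points are libraries, and lines and bars are the mean ± SD. Msx3 lies between 23.36 and 28.44 FPKM with IL-4 and at or under 0.03 FPKM in the controls, Msx2 is lower in all IL-4 libraries, and the Msx1 groups overlap.

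The order of the 3 genes differed between the groups. In FPKM, which allow levels of different genes to be compared, the order in each control library was Msx1, Msx2 and Msx3, with Msx1 at 0.85 to 0.96, Msx2 at 0.18 to 0.25 and Msx3 at 0 to 0.03. In each IL-4 library the order was Msx3, Msx1 and Msx2, with Msx1 at 0.76 to 1.24 and Msx2 at 0 to 0.10. The ranges of neighbours in either order did not overlap. Msx1 made up 75.2% to 82.7% of the summed MSX FPKM in the controls and 2.99% to 5.04% with IL-4, while Msx3 made up 0% to 2.65% in the controls and 94.96% to 96.7% with IL-4. The summed level of the family was 1.04 to 1.18 FPKM in control and 24.6 to 29.45 FPKM with IL-4. Among all 18384 genes ranked by mean FPKM, Msx3 was at place 16799 in control and 2782 with IL-4, where 15.13% of genes were higher. Msx1 was at place 11993 in control and 11792 with IL-4, and Msx2 at 13572 and 14927.

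Of the 3 members, 2 (Msx2 and Msx3) had groups that did not overlap. The share of all genes with such groups was not computed. The 5.77% of tested genes called higher and the 5.26% called lower follow another rule and are no measure of it. Nothing is read from the count of 2 members, since these values chose the genes. All 3 passed the filter on low counts, Msx2 only through its control libraries and Msx3 only through its IL-4 libraries.

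The 2 control reads of Msx3 were both in control replicate 3, and the other genes set beside it here also had most of their control reads there. As a share of the mean IL-4 level, Msx3 in control replicate 3 was at 0.108% (exact 95% Poisson interval 0.0131% to 0.392%). Chil3, a chitinase-like protein of alternatively activated macrophages, had 77 reads there, or 0.103% of its IL-4 level (0.0816% to 0.129%). For the related Chil4 the share was 0.12% from 21 reads, and for Car4, a membrane-bound carbonic anhydrase, it was 0.12% from 11 reads. Retnla with 18 reads (0.135%) and Rnase2a with 3 reads (0.078%), both added after their values were seen, were close to these shares. In control replicates 1 and 2 the shares of the 6 genes were between 0% and 0.0263%. Not all genes that rose with IL-4 showed this. In control replicates 1 to 3, Ccl24 had 2, 0 and 2 reads and Duox2 0, 2.03 and 1. Ear2, Pdcd1lg2 and Dmp1 had 0 in each. Mgl2 with 10, 11 and 21 and Arg1 with 64, 62 and 169 were highest in replicate 3 but were read in all controls. These genes were named after their values were seen. The 2 Msx3 reads alone do not set control replicate 3 apart, since the 0 reads of control replicates 1 and 2 allow shares of up to 0.203% and 0.205% (upper bounds of the same interval). The source of these 2 reads was not tested. The intervals cover counting error only.

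**Figure D2:**
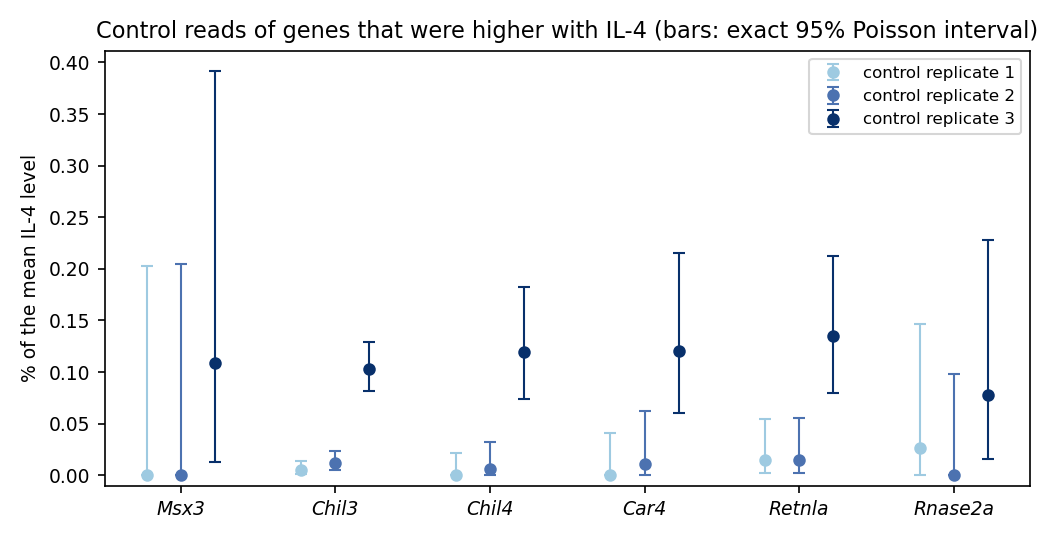
Reads in each control library as a percentage of the gene's mean IL-4 level (vertical axis) for Msx3 and 5 other genes that were higher with IL-4. Points are libraries and bars are exact 95% Poisson intervals. Control replicate 3 lies between 0.078% and 0.135% for all 6 genes, and the other controls at or under 0.0263%.

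Msx3 belonged to a small group of genes with at most a few control reads and many IL-4 reads. Genes with at most 3 reads in each control library and at least 100 in each IL-4 library numbered 7, and no gene met the reverse rule. By mean IL-4 level, Msx3 at 25.46 FPKM was behind the ribonuclease Rnase2a at 180.6 FPKM. It was ahead of the ribonuclease Ear2 at 12.2, the chemokine Ccl24 at 10.1, the checkpoint ligand Pdcd1lg2 at 2.16, the matrix protein Dmp1 at 1.41 and the oxidase Duox2 at 1.22 FPKM. These names were listed after their values were seen. Msx3 was the only homeobox gene among the 7. The count was 14 without control replicate 3, 24 with up to 10 reads allowed in the controls and 15 with at least 30 reads asked for in the IL-4 libraries.

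Among homeobox genes, Msx3 was near the lower end of the expressed genes in control and near the top with IL-4. The 228 protein-coding mouse genes with "homeobox" in their description, members included, gave 134 with a mean FPKM above 0 in control and 139 with IL-4. Msx3 was at place 121 in control and 5 with IL-4, and at places 6, 5 and 5 in the single IL-4 libraries. With IL-4 it followed Prrx1 at 95.05, Zeb2 at 37.57, Tgif1 at 36.79 and Hoxc10 at 31.76 FPKM, and it preceded Shox2 at 25.19 FPKM. Its mean differed from that of Shox2 by less than the SD of its own libraries. Msx3 made up 3.89% of the summed homeobox FPKM with IL-4. Msx1 was at place 71 in control and 72 with IL-4, and Msx2 at 90 and 106.

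Most homeobox genes other than the MSX family were not called. Of 225, 92 were tested, 6 were called higher (6.52%) and 5 lower (5.43%), shares near the 5.77% and 5.26% over all genes. Their median log2 fold change was -0.01, against 0.00 over all genes tested. The genes that rose were Lmx1a, a factor of the neural roof plate, by 3.94, Dlx3 by 3.06 and Dlx5 by 1.24, both distal-less factors of bone and skin, Hopx by 1.504, Gsc by 1.22 and Lhx8 by 1.004 on the log2 scale. Hopx and Gsc were named after their values were seen. Among the genes that fell were Meox1 (log2 fold change -1.69), a factor of embryonic mesenchyme, Dlx1 (-1.31), Hhex (-1.02) and Nanog (-1.01), a pluripotency factor whose counts included shared reads. The largest of the rises, in Lmx1a, brought it to 0.257 FPKM with IL-4, from 0, 2 and 3 reads in the controls to 20, 26 and 28. Among the 45 genes most closely related to MSX in homeodomain class, 10 were tested, 2 rose (Dlx3 and Dlx5), 3 fell (Dlx1, Hhex and Nanog), and the median was -0.48. Single libraries decided several of these calls. Hhex was at -0.97 without control replicate 3, -0.99 without IL-4 replicate 4 and -0.95 without IL-4 replicate 5, short of the fold threshold, and Lhx8 was at 0.93 without control replicate 2 and 0.98 without IL-4 replicate 6. The adjusted p of Dlx1 was 0.0649 without control replicate 2 and 0.0695 without IL-4 replicate 5, and that of Meox1 was 0.0577 to 0.0663 without control replicate 2 or 3 or IL-4 replicate 4 or 5. Nanog was lost without any control replicate and without IL-4 replicate 4 or 5 (adjusted p 0.0736 to 0.146). The homeobox genes called lower numbered 2 without control replicate 2 or IL-4 replicate 4 and 1 without IL-4 replicate 5.

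**Figure D3:**
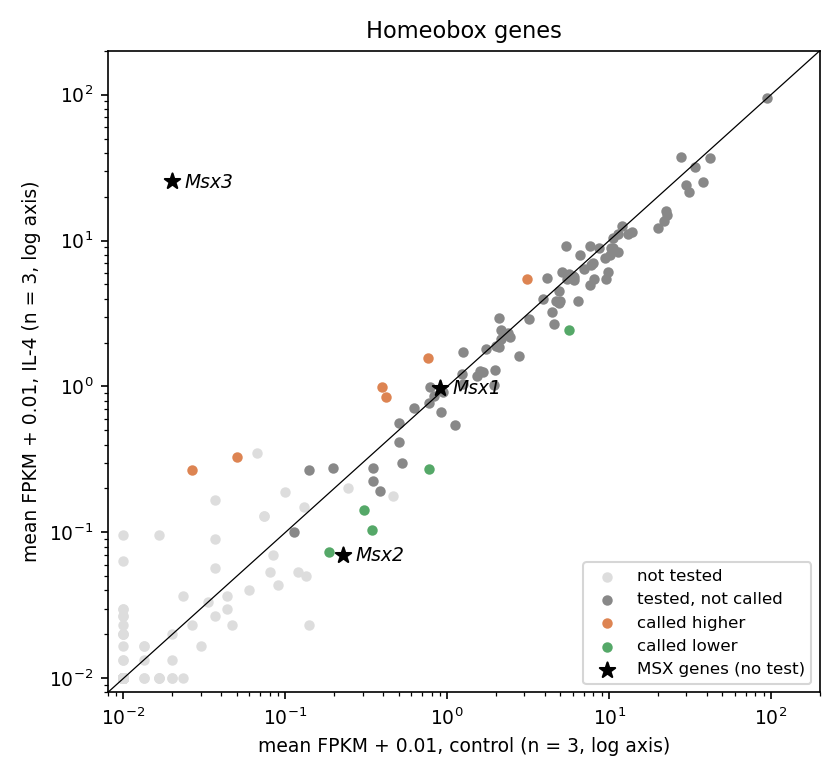
Mean FPKM + 0.01 of 228 homeobox genes in control (horizontal, log axis) and with IL-4 (vertical, log axis), n = 3 libraries each. Stars are the MSX genes, colours mark the calls of the other genes, and the line marks equal levels. Msx3 stands far above the line at 25.46 FPKM with IL-4, Msx1 lies close to it and Msx2 below it.

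Most genes next to the MSX loci were not called. The 5 nearest protein-coding genes on each side of each member, 30 in all, gave 23 that were tested. Of these, 3 were called higher (13.0%) and 1 lower (4.35%), against 5.77% and 5.26% over all genes tested. At adjusted p under 0.05 and any fold, 10 were higher and 2 lower. The share of all tested genes under this looser rule was not computed, so nothing is read from such counts here or below. Around Msx3 the other genes lay from -102.3 to 69.6 kb away. Of the 7 tested there, 4 were higher at any fold by the same limit and none lower, and 1 was called higher. This was Spef1l, at -73.9 kb between lower coordinates, with 7, 8 and 3 reads in control and 17, 11 and 22 with IL-4 (log2 fold change 1.60, SE 0.42, adjusted p 0.0179). Without control replicate 3 its log2 fold change was 1.28 and its adjusted p 0.055. Zfp511, the nearest gene to Msx3 at -9.8 kb, had a log2 fold change of 0.22 (SE 0.11, adjusted p 0.162). Adam8, a membrane metalloprotease at -67.2 kb, was the most abundant neighbour, with 8059, 8170 and 9262 reads in control and 10098, 10655 and 11313 with IL-4 (log2 fold change 0.49, adjusted p 0.000878), under the fold threshold. Caly and Utf1, also next to Msx3, were at 0 in all libraries. Beyond the 5 nearest genes but within 500 kb of Msx3, Sprn at 104.5 kb was also called higher, with 9, 10 and 10 reads in control and 25, 36 and 18 with IL-4 (log2 fold change 1.59, SE 0.34, adjusted p 0.0068), and was named after its values were seen.

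Around Msx2, which was lower with IL-4, 2 of 8 tested neighbours were called higher and none lower. Hrh2, the histamine H2 receptor gene at 725.1 kb, had 0, 3 and 5 reads in control and 196, 223 and 215 with IL-4 (log2 fold change 6.39, SE 0.34, adjusted p 3.88e-06). Nfil3, a basic leucine zipper repressor at -499.7 kb, rose by 1.26 on the log2 scale (SE 0.06). Ror2, a Wnt5a receptor at -357.6 kb, was at -0.78 (adjusted p 7e-05), under the fold threshold. Around Msx1, 1 of 8 was called lower, Crmp1, a cytoskeletal phosphoprotein of neurons at -578.4 kb (log2 fold change -1.60, SE 0.25). Evc and Evc2, hedgehog pathway genes on the same side of Msx1, were not called.

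**Figure D4:**
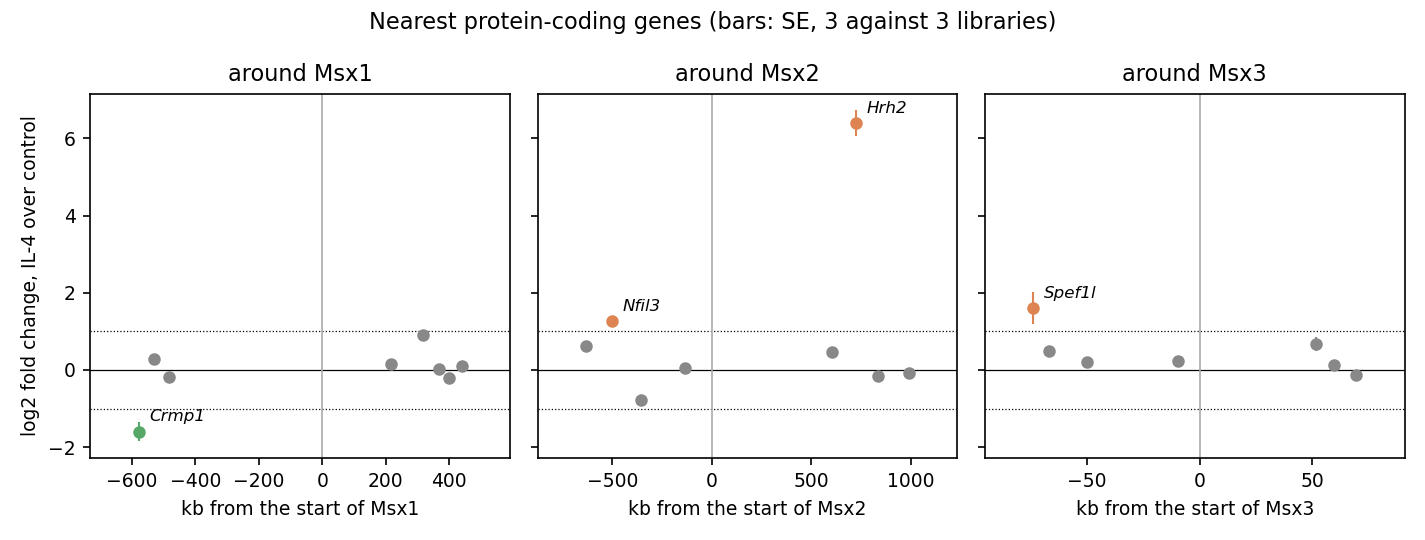
Log2 fold change of the tested protein-coding genes nearest to each MSX gene (vertical axis, bars are SE, 3 against 3 libraries) by distance between lower coordinates in kb (horizontal axis, a scale for each gene). Dotted lines mark a log2 fold change of 1 and -1. The called genes are Crmp1 near Msx1, Nfil3 and Hrh2 near Msx2 and Spef1l near Msx3, and Zfp511, nearest to Msx3, is at 0.22.

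BMP signals are the known inducers of Msx1 and Msx2, and their genes moved in both directions. Across BMP ligands, receptors and SMADs, inhibitors and target genes, 41 genes, 37 were tested, with a median log2 fold change of 0.01. Of these, 3 were called higher (8.11%) and 4 lower (10.8%), against 5.77% and 5.26% over all genes tested. Of the ligands, Bmp2 rose by 1.19 and Bmp5 was called lower at -1.44 on the log2 scale, each with at most 58 reads in a library. The type I receptor gene Bmpr1b was lower at -1.55, and the 9 other receptor and SMAD genes were not called. Of the secreted inhibitors, Chrd (chordin) rose by 1.25 and Fst (follistatin) was lower at -1.65. Among the targets, Id4, a dominant negative helix-loop-helix gene, rose by 1.70 and Hey1, a Notch and BMP responsive repressor, was lower at -2.05, while the classical targets Id1, Id2 and Id3 were between -0.42 and -0.08 and were not called. The target list alone had a median of -0.33. At adjusted p under 0.05 and any fold, 5 of its 9 genes were lower, among them Atoh8 at -0.92, and 3 were higher. The share of all tested genes under this rule was not computed. The call of Bmp5 was lost without control replicate 2, IL-4 replicate 4 or IL-4 replicate 5 (adjusted p 0.0515 to 0.0583). Beside these genes, Msx1 was at 0.29 and Msx2 at -1.64.

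Most genes whose products bind MSX proteins were read in both groups. Of 16 partner genes, 13 were tested, with a median of 0.02 (Pax7 was at 0 in all libraries, and Pax3 and Pax9 were under the filter). Of these, 1 (7.69%) was called higher (Dlx5, from 13, 16 and 17 reads to 38, 30 and 30) and none lower. Over all genes tested, 5.77% were called higher and 5.26% lower. Of the TLE genes, Tle5 was the most abundant, at 205.9 FPKM in control and 233.4 with IL-4, followed by Tle3 at 25.2 and 25.89 FPKM. Of 21 factors of limb, skull and adipose mesenchyme, 16 were tested, none rose, and 2 (12.5%) fell, among them Meox1, with a median of 0.00. Prrx1, the most abundant homeobox gene of the cultures, was at 94.12 FPKM in control and 95.05 with IL-4. Msx1 at 0.97 and Msx2 at 0.06 FPKM with IL-4 were thus minor homeobox transcripts of these cultures, and Msx3 at 25.46 FPKM was on the scale of Shox2 at 25.19 FPKM and Hoxc6 at 24.0 FPKM.

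Among 14 genes of bone and fat formation, between which Msx2 is known to act, 12 were tested. Of these, 3 rose (25.0%) and 3 fell (25.0%), against 5.77% and 5.26% over all genes tested. The rises were in the fat cell regulator Pparg by 1.76, the fatty acid carrier Fabp4 by 1.10 and Klf4 by 2.36 on the log2 scale. The falls were in the bone regulator Sp7 (-2.68, from 23, 11 and 11 reads to 0, 2 and 4), the alkaline phosphatase Alpl (-1.73) and Spp1 (osteopontin, -2.56), which macrophages also express. Runx2, the regulator above Sp7, was at -0.18 and was not called. At adjusted p under 0.05 and any fold, 7 genes of the list were higher and 3 lower. Sox9 at 0.73 and Col1a1 at 0.33 were among the higher ones. The share of all tested genes under this rule was not computed. Without control replicate 1 or IL-4 replicate 5, Sp7 had an adjusted p of 0.0577 and 0.0544, and without IL-4 replicate 6 Fabp4 was at 0.98. All 3 IL-4 libraries were lower than all 3 controls for both Msx2 and Sp7, each with 0 reads in IL-4 replicate 4. With at most 6 reads of Msx2 and 4 of Sp7 in an IL-4 library, nothing is read from this likeness. A relation between the 2 genes was not tested.

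**Figure D5:**
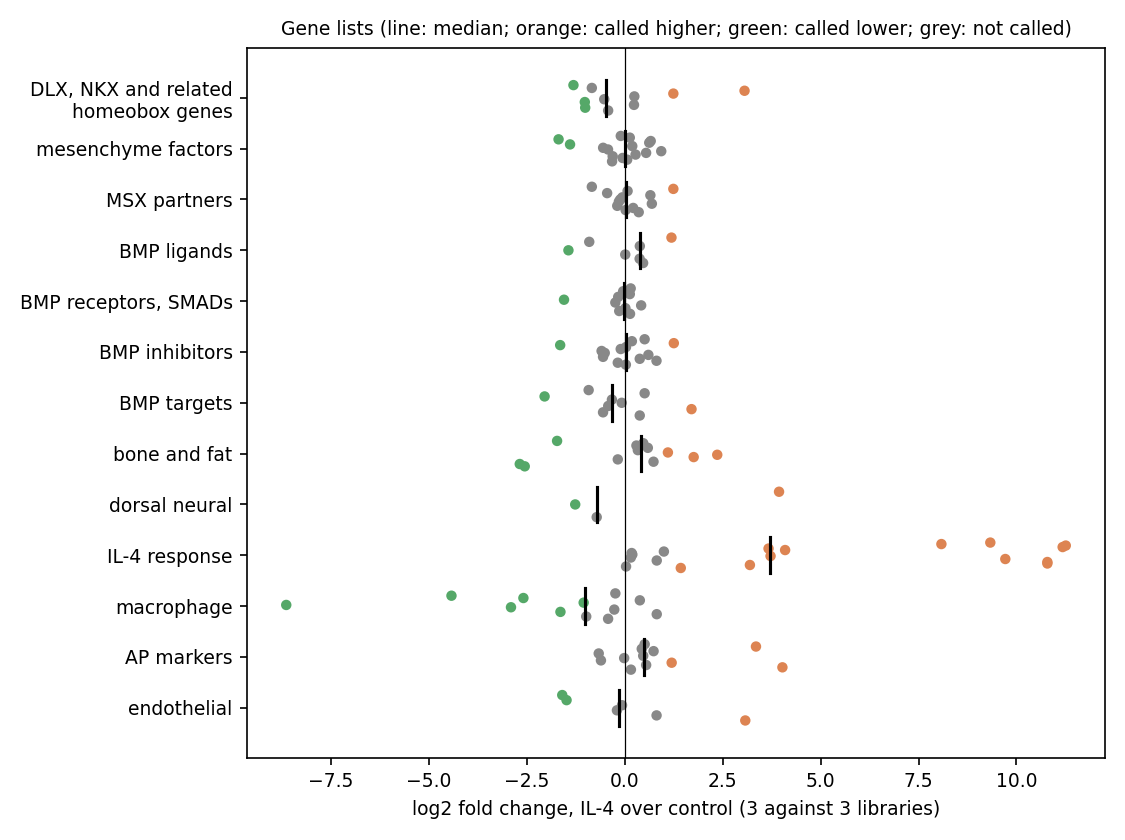
Log2 fold change with IL-4 (horizontal axis) of the tested genes of each list (rows), 3 against 3 libraries. Points are genes, coloured by call, and vertical lines are list medians. The partner and mesenchyme lists have medians of 0.02 and 0.00, the BMP ligands 0.38, the BMP targets -0.33, the IL-4 response list 3.70 and the macrophage list -1.02.

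Msx3 is best known from the dorsal neural tube, and few markers of that tissue were read at more than a low level. Of 16 markers of dorsal neural tube and neural crest, 6 were at 0 in all 6 libraries, among them Pax7, Sox1, Wnt3a, Olig3 and Atoh1, and 3 were tested. Their summed level was 5.5 to 7.01 FPKM in control and 2.44 to 3.08 FPKM with IL-4, most of it from Sox10, a neural crest and Schwann cell factor that was lower with IL-4 at -1.27. Lmx1a was the only marker that rose. Of the 3 tested, 1 thus rose and 1 fell (33.3% each), against 5.77% and 5.26% over all genes tested.

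Marker genes of the cells that the cultures could hold also differed between the groups. The cultures held macrophage transcripts, although CD45-bearing cells had been removed, and all 12 macrophage markers were read in every library. Their summed level was 3127 to 4003 FPKM in control and 1235 to 1582 FPKM with IL-4. Most of it was Lyz2, with a mean of 2739 FPKM in control and 776.4 with IL-4. Of the 12, 6 were called lower (Aif1, Cd14, Csf1r, Cx3cr1, Fcgr1 and Lyz2) and none higher. At adjusted p under 0.05 and any fold, 10 were lower and 1, Mrc1, was higher (log2 fold change 0.82). For this rule, used again for the AP markers, the share of all tested genes was not computed. Cd68 was at 0.38 (adjusted p 0.0572). Csf1r was at -0.99, short of the fold threshold, without control replicate 3. Of 20 genes of the IL-4 pathway and of macrophages after IL-4, 18 were tested, 12 (66.7%) rose and none fell. The summed level of these 20 genes was 322 to 341 FPKM in control and 4277 to 5638 FPKM with IL-4. Of 12 AP markers, 3 (25.0%) were called higher (Cd34, Pi16 and Ly6a, which encodes SCA-1) and none lower. At adjusted p under 0.05 and any fold, 6 were higher and 2 lower, Lum at -0.61 and Dlk1 at -0.67 on the log2 scale. The list summed to 3646 to 3749 FPKM in control and 4253 to 4554 FPKM with IL-4. Most of this was Col1a2, with a mean of 2501 FPKM in control and 2990 with IL-4. All 12 AP markers, such as Pdgfra at 55.3 FPKM in control and 71.4 with IL-4, were read in both groups. Endothelial markers summed to 12.65 to 13.29 FPKM in control and 14.12 to 16.18 FPKM with IL-4. Of these 6 genes, Vwf rose (16.7%) and Cdh5 and Emcn fell (33.3%). The 6 lymphocyte markers summed to at most 0.15 FPKM, with the T cell markers Cd3e and Cd3d at 0. These lists were compiled with earlier results of the data known. The part of macrophages, APs or other cells in the level of Msx3, Msx2 or Msx1 was not tested.

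The genes whose levels over the 6 libraries were most like those of Msx3 were found by Euclidean distance on log2(FPKM + 1). They were Serpina3c, a serine protease inhibitor (distance 0.325), Tmem26, a transmembrane protein known as a beige fat marker (0.414), the lipase gene Lipn (1.19), the PAR leucine zipper factor Hlf (1.29) and Sel1l3 (1.56). Control levels of Serpina3c were 0.13, 0.06 and 0.21 FPKM, and its IL-4 levels were 24.17, 23.54 and 26.69 FPKM. Those of Tmem26 were 0.09, 0.10 and 0.17 FPKM in control and 26.46, 25.71 and 23.51 FPKM with IL-4. Both were read in every control library, with at least 3 reads of Serpina3c and 13 of Tmem26, whereas Msx3 had no read in 2 of them. With a pseudocount of 0.1, 2 of these 5 genes were still among the 5 nearest. The genes nearest to Msx1 were AU041133, Gm15645, Aox1, Eepd1 and E130317F20Rik, at distances of 0.178 to 0.248, all at levels near 1 FPKM in both groups. For Msx2, with a mean of 8.33 counts, no such genes were sought.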

How the data were processed

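Poly-A RNA of 3 control and 3 IL-4 cultures was sequenced, and the authors computed gene levels with Bowtie2 and RSEM on mouse RefSeq transcripts (mm10, which is GRCm38). The submitters' processing notes also name HISAT and StringTie. Versions and the use of strand are not given in the sources used here. The deposited expected counts are estimated reads per gene, not normalized, of which 87.0% are whole numbers, and the deposited FPKM values were scaled by the authors for transcript length and library size. Rows that named no gene held 21 to 65 counts per library and were left out. Small RNA files of 4 other libraries were not used. The members and gene lists were chosen with earlier results of these data known.

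After rounding, filterByExpr asked for about 10 counts in at least 3 libraries, the size of a group, and 15 in total. It left 14009 genes. These were scaled with TMM and tested by quasi-likelihood in edgeR 4.0.16 (R 4.3.3), and p-values were adjusted over all of them after Benjamini and Hochberg. The biological coefficient of variation was 0.0939. Calls needed a log2 fold change beyond 1 and an adjusted p below 0.05, thresholds that the study used with DESeq2. Normalized counts are relative to the scaled size of each library and brought to the mean size. A group in which every library had at most 3 counts was given a bound from 3 counts per library. The labels call the libraries biological replicates without naming animals, so p-values describe the spread between these cultures. Alternatives were DESeq2 1.42.0, upper-quartile scaling, library totals, omission of the filter, limma 3.58.1 on log2 FPKM after adding 1 or 0.1, and each library left out in turn. The edgeR step was tested on simulated counts.

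Genes named were the 3 members, the 5 nearest protein-coding genes on each side by lower coordinate, the 5 genes most like each member with a mean of at least 10 counts, called homeobox genes with a mean of at least 50 normalized counts, called genes of each list, and Chil3, Chil4 and Car4 for control reads. Some genes of these lists are not reported here by name. Homeobox genes were protein-coding genes with that word in their RefSeq or file description, after 4 names were dropped by hand because the word there referred to another gene. Positions and promoters came from RefSeq GRCm38.p6. Tables were made with Python 3.11.15, pandas 2.3.3, numpy 2.4.6, matplotlib 3.10.9 and scipy 1.17.1.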

Additional observations from a re-analysis of the deposited data

How the results depend on the processing

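No paired analysis was possible because the control libraries are numbered 1 to 3 and the IL-4 libraries 4 to 6, so they share no replicate number. Msx3 was higher and Msx2 lower with IL-4 under all 12 alternatives. The fitted Msx3 log2 fold change was 4.71 by limma on log2(FPKM + 1), 7.87 on log2(FPKM + 0.1), where the added constant bounds it, and 10.65 to 13.74 with 1 library left out. limma on log2(FPKM + 1) called 348 genes higher and 352 lower, none of the homeobox genes in either direction (0 higher, 0 lower), 0 lower near the MSX genes and 12 lower over all lists, against 809, 737, 6, 5, 1 and 21 by edgeR. On log2(FPKM + 0.1), 3 homeobox genes were higher and 3 lower, and DESeq2 called 3 lower. Leaving out 1 library gave 1 to 6 homeobox genes lower and 7 to 14 genes that went from the floor to at least 100 reads. With limits of 10 and 100 reads the latter were 24, and with 3 and 30 reads they were 15. Within 500 kb of the MSX genes 3 were higher (Nfil3, Spef1l and Sprn) and 0 lower, as Hrh2 and Crmp1 lie farther out. With log2(FPKM + 0.1), 2 of the 5 genes most like Msx3 were shared. The median log2 fold change of all genes shifted by -0.173 with library totals, -0.136 with limma on log2(FPKM + 1) and -0.172 on log2(FPKM + 0.1). Calls were higher with IL-4 in 52.33% by TMM, 40.61% by library totals and 43.04% by limma on log2(FPKM + 0.1). Of 53 named calls, 30 were made under every alternative and 10 were lost only by limma on log2(FPKM + 1). Counts of Msx2, and of Msx3 in control, are too low for more than a coarse fold.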
